A study of Mus musculus with 16 samples.

Results

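The 9 developmental transcription factors that mark where a fat precursor comes from, Zic1, Lhx8, Meox1, Meox2, Tbx15, Tbx18, Ebf2, Ebf3 and En1, were followed in cultured mouse preadipocytes of a brown and a white depot, with and without the growth factor Fgf8b. They were taken by symbol from the deposited expression table, whichever way they behaved, and all 9 were found among the 29060 genes of the table, on 47 of its 144549 entries with a symbol. Preadipocytes are the fibroblast-like precursors of fat cells, cultured from the stromal part of the tissue. The cells came from C57BL/6N mice carrying a Ucp1 reporter, which all groups share. The 4 groups of 4 libraries were control and Fgf8b cultures of inguinal white fat (iwat_ctrl and iwat_fgf) and of interscapular brown fat (ibat_ctrl and ibat_fgf), here named by depot and treatment (white control, brown Fgf8b and so on). No source used here gives the age of the mice, the dose of Fgf8b or the length of treatment, and the sample labels call the cells adipocytes where the design text calls them preadipocytes. With 3 independent cultures in the design text and 4 libraries in each group, some of the spread that the p-values are measured against may be technical. Library numbers run from 1 to 8 in white and from 9 to 16 in brown cells, so that depot and library number cannot be told apart.

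These factors belong to families that lay out the embryo. Interscapular brown fat descends from the dermomyotome, the dorsal part of the somite that also gives rise to dorsal muscle and dermis, and cells of this origin once expressed En1. Cultured precursors keep part of that positional programme. Zic1, a zinc finger factor of the dorsal neural tube and somite, and Lhx8, a LIM homeodomain factor, are widely used as markers of classical brown fat. Meox1 and Meox2 are homeodomain factors of the somite. Tbx15 and Tbx18 are related T-box factors of mesenchyme of the trunk, skin and limb, and Tbx15 is also known from fat depots. Ebf2 is an early B-cell factor that marks brown and beige precursors and opens brown-selective chromatin, and Ebf3 is its close relative.

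The proximal promoters of 6 of the 9 factors were found among RefSeq mouse promoters (build GRCm38.p6), those of Zic1, Lhx8, Meox2, Tbx18, Ebf3 and En1. The stretches of 4 of them are shown, each within the 250 bases before the transcription start and with bases that lie in an annotated exon left out. Zic1 is shown because it separated the depots most, Meox2 and En1 because they had the largest log2 falls under Fgf8b, and Ebf3 because its family is followed below by shares. Capitals mark matches, on either strand, to 7 words. These were the CCAAT box (spelled CCAAT), the TATA box (spelled TATAAA), an E-box (spelled CACGTG), a homeodomain core (spelled TAATTA), a T-box site (spelled AGGTGT), an EBF core (spelled CCCNNGGG) and an ETS core (spelled CCGGAAG). The Zic1 stretch is chr9:91365811-91366018 on the minus strand, the Meox2 stretch chr12:37108290-37108539 on the plus strand, the En1 stretch chr1:120602237-120602417 on the plus strand and the Ebf3 stretch chr7:137314446-137314695 on the minus strand.
Zic1: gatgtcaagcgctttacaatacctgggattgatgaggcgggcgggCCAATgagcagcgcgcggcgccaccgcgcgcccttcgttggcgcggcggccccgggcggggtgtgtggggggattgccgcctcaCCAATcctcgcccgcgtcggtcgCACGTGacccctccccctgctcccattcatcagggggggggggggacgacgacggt
Meox2: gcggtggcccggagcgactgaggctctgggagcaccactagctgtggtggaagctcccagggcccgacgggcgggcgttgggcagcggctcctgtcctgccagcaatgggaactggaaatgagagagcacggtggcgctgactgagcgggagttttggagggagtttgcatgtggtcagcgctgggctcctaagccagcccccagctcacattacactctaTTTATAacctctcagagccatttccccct
En1: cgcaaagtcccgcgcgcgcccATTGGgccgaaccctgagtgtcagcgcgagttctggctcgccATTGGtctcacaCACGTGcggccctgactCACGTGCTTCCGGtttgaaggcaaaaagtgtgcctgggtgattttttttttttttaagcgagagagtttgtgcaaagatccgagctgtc
Ebf3: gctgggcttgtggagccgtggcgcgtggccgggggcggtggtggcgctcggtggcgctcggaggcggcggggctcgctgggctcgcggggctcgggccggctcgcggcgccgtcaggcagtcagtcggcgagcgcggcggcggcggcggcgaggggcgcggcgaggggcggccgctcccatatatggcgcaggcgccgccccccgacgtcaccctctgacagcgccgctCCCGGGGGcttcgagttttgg

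The 4 promoters differ in make-up. The Zic1 stretch of 208 bases holds 2 CCAAT boxes and 1 E-box, which begins 98 bases before the start. The Meox2 stretch holds a TATA box on the reverse strand, 29 bases before the start, and none of the other 6. The En1 stretch of 181 bases holds 2 CCAAT boxes, both on the reverse strand, and 2 E-boxes, the second of which is directly followed by the ETS core on the reverse strand, at 152 bases before the start. The Ebf3 stretch holds 1 EBF core, 21 bases before the start, and has a GC content of 80.0%, against a median of 52.4% over 32851 promoters. In those promoters, the same 250 bases held the CCAAT box in 33.8%, the TATA box in 12.4%, the E-box in 6.02%, the homeodomain core in 4.84%, the T-box site in 11.8%, the EBF core in 11.8% and the ETS core in 6.91%. The Lhx8 window held none of the 7 words, and the Tbx18 window, which lies wholly in exons of the overlapping gene D030062O11Rik, held 1 CCAAT box. A match describes the letters in the window and was not tested as a binding site.

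Levels are given as RPKM, reads scaled to transcript length and library depth, of the gene's RefSeq transcript of highest mean, with mean ± SD over n = 4 libraries. These entries were NM_009573 for Zic1, NM_010713 for Lhx8, NM_010791 for Meox1, NM_008584 for Meox2, NM_009323 for Tbx15, NM_023814 for Tbx18, NM_010095 for Ebf2, NM_010096 for Ebf3 and NM_010133 for En1. Changes are log2 fold changes of the RPKM summed over a gene's entries, after adding 0.5, with their standard error (SE). A scale of this kind understates the change of low genes. They come from a limma fit over all 16 libraries, and a gene was called where its Benjamini-Hochberg adjusted p over 15222 tested genes was under 0.05. All 9 factors passed the filter for testing, at least 0.5 RPKM in at least 4 libraries. The depth recovered from the values ran from 13.7 to 16.1 M reads in brown and from 15.6 to 20.1 M reads in white libraries. Within groups, the reads of the 9 factors varied in most sets about as counting alone allows, with a median chi-square per degree of freedom of 0.89. Of the 36 sets of 4 libraries, 5 varied more and were above the 95% limit of 2.60. The highest was 4.69, for Tbx18 in white control. Over all tested genes, brown control 15 stood apart from its group, with a root mean square log2 difference of 0.31 to 0.33 from the other 3 brown controls against 0.23 to 0.28 in the 21 other pairs within groups. Without it the calls of the 9 factors were those given here, except for the En1 difference between responses.

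The cultures carried the profile of preadipocytes. All 7 preadipocyte and fibroblast markers had a mean of at least 1 RPKM in every group. Their summed level was 3208 to 3303 RPKM in white control, 1638 to 1826 in white Fgf8b, 2112 to 2540 in brown control and 1093 to 1139 in brown Fgf8b libraries, so it fell with Fgf8b in both depots. Of 5 fat cell markers, Cfd and Lep were listed at 0 in all libraries, Adipoq and Plin1 had group means of at most 0.0424 RPKM, and Fabp4 alone was measurable. Markers of other cells were low. The summed level was at most 18.6 RPKM for 8 skeletal muscle, 15.5 for 6 Schwann cell, 12 for 6 endothelial, 5.52 for 6 leukocyte and 1.5 for 7 mesothelial and epithelial markers. Several of these lists moved with the depot in controls. The Schwann cell markers had 12.9 to 15.5 RPKM in brown and 8.73 to 10.4 RPKM in white libraries, although Mbp, a myelin gene of that list, was lower in brown (2.10 ± 0.268 against 3.35 ± 0.366 RPKM, log2 -0.44, limma adjusted p = 0.0352). The skeletal muscle markers had 12.8 to 18.6 and 8.85 to 12.4 RPKM, the fat cell markers 16.8 to 19.5 and 9.66 to 11.1 RPKM, and the leukocyte markers 3.27 to 5.52 and 2.38 to 3.14 RPKM. As a sum, the endothelial markers were lower in brown, 7.62 to 8.89 against 11.1 to 12 RPKM. Of their 5 tested genes, 2 were called higher and 3 lower in brown. Of 3 tested leukocyte genes, 2 were called higher and 1 lower. Of 6 tested skeletal muscle genes, 2 were called higher and 4 were not called, and the fat cell list had only 1 tested gene, called higher. The part of these lists in the depot differences was not tested. In bulk cultures, fewer cells of a type and less RNA per cell cannot be told apart.

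**Figure D1:**
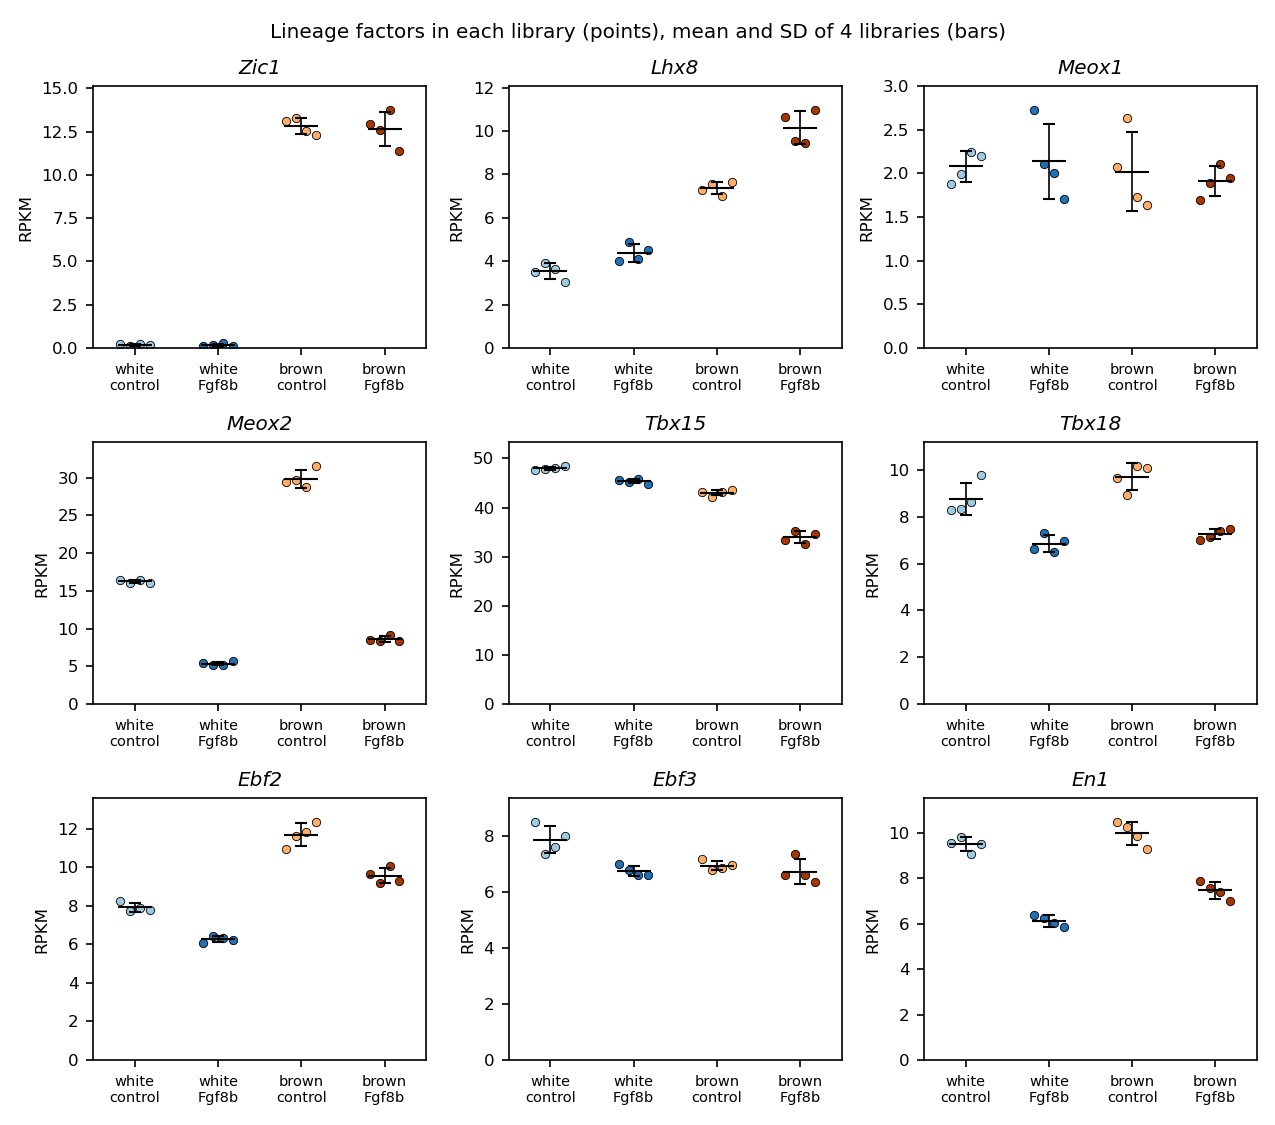
RPKM (vertical axes, starting at 0) of the representative transcript of the 9 factors in each of 16 libraries, with points for libraries and bars for mean and SD of the 4 libraries of a group. Zic1 is near 0 in both white groups and near 13 RPKM in both brown groups, Meox2 drops with Fgf8b in both depots, and Meox1 overlaps between all 4 groups.

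In untreated cells, the depots differed first in the factors used as markers of brown fat. Zic1, Lhx8, Meox2 and Ebf2 were higher in brown preadipocytes, Tbx15 and Ebf3 slightly lower, and Meox1, Tbx18 and En1 were not called. That is 6 of 9 factors, beside 33.9% of all tested genes called in this comparison (18.1% higher and 15.9% lower). The median log2 change of the 9 was 0.14, and that of all tested genes was 0.00.

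Zic1 had 0.210, 0.121, 0.225 and 0.148 RPKM in white controls 1, 3, 5 and 7, resting on 8 to 14 reads per library. It had 13.1, 13.3, 12.5 and 12.3 RPKM in brown controls 9, 11, 13 and 15, on 603 to 704 reads. Every brown library stood far above every white one, and the ratio of RPKM was 54.6 between the lowest brown and the highest white control and 110 between the highest and the lowest. The log2 change was 5.72 (SE 0.18, limma adjusted p = 3.48e-14), the largest absolute log2 change among the 15222 tested genes in this comparison. It depended on what was added to the RPKM, 6.11 with 0.1 and 5.35 with 1. It also depended on the summing of entries, which share reads. The RefSeq entry alone gave 4.30 on the log2 scale of group means, and no single entry gave more than 4.51. Few but nonzero reads of Zic1 were thus found in every white library.

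Lhx8 stood at 3.52, 3.94, 3.63 and 3.04 RPKM in white controls 1, 3, 5 and 7 and at 7.29, 7.56, 7.01 and 7.65 RPKM in brown controls 9, 11, 13 and 15. The groups did not overlap, and each white library held 109 to 154 reads of Lhx8, more than of Zic1. The log2 change was 1.04 (SE 0.08, limma adjusted p = 1.57e-08).

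Meox2 had 16.5, 16.1, 16.4 and 16.1 RPKM in white controls 1, 3, 5 and 7, and 29.5, 29.7, 28.8 and 31.6 RPKM in brown controls 9, 11, 13 and 15. The groups stood well apart, with a log2 change of 0.87 (SE 0.05, limma adjusted p = 7.33e-11). Its relative Meox1 had 1.88 to 2.25 RPKM in white and 1.64 to 2.64 RPKM in brown controls, which overlap (log2 -0.04, SE 0.13, limma adjusted p = 0.847). These values rest on 58 to 92 reads per library for Meox1 and 605 to 1191 for Meox2.

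Ebf2 had 8.25, 7.74, 7.88 and 7.77 RPKM in white controls and 10.9, 11.6, 11.8 and 12.3 RPKM in brown controls. The lowest brown library was above the highest white one, with a log2 change of 0.56 (SE 0.05, limma adjusted p = 4.70e-08). Ebf3 went the other way and by less, 8.49, 7.35, 7.60 and 7.98 RPKM in white against 7.15, 6.78, 6.83 and 6.96 RPKM in brown controls (log2 -0.16, SE 0.05, limma adjusted p = 0.0259). The groups of Ebf3 nearly touch. Its call was lost without white control 1 (log2 -0.12, adjusted p = 0.103), white control 7 (0.0609), brown control 11 (0.0634) or brown control 13 (0.0584), and in a fit of only these 2 groups (0.0553).

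Tbx15 was the most abundant of the 9 in every group. It had 47.7, 47.8, 48.0 and 48.5 RPKM in white controls and 43.2, 42.2, 43.1 and 43.5 RPKM in brown controls, a small but tight difference without overlap (log2 -0.17, SE 0.04, limma adjusted p = 0.00169). Tbx18 had 8.28 to 9.79 RPKM in white and 8.95 to 10.2 RPKM in brown controls, which overlap (log2 0.14, SE 0.06, limma adjusted p = 0.0929). It was called without white control 7, its highest white library (log2 0.19, adjusted p = 0.0226), and without brown control 11, its lowest brown library (0.18, adjusted p = 0.0457). In the RefSeq transcript alone the adjusted p of Tbx18 was 0.0489. En1 had 9.08 to 9.82 RPKM in white and 9.29 to 10.5 RPKM in brown controls (log2 0.09, SE 0.06, limma adjusted p = 0.233). En1, whose past activity marks the dermomyotome, was thus read at similar levels in precursors of both depots.

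**Figure D2:**
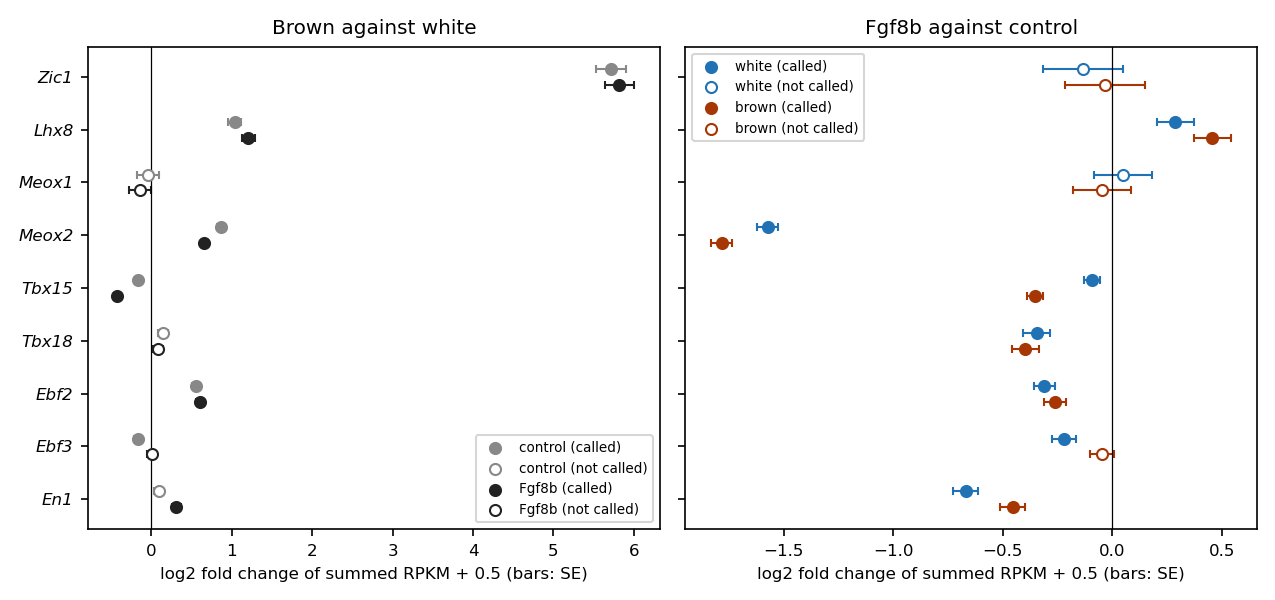
Log2 fold changes (horizontal axes) of the 9 factors from the limma fit with their SE, for brown against white preadipocytes (left) and Fgf8b against control (right), with filled points for called and open points for not called changes. Zic1 lies above 5.5 in both depot comparisons and near 0 in both Fgf8b comparisons, and Meox2 lies below -1.5 in both Fgf8b comparisons.

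With Fgf8b, 5 of the 6 factors called between the control depots were called again in the same direction, Zic1, Lhx8, Meox2 and Ebf2 higher in brown cells and Tbx15 lower. En1 was called higher too, which makes 6 of 9, beside 51.6% of all tested genes called (26.9% higher and 24.7% lower). The 2 depot comparisons share no library, but they come from the same fit, and no label tells whether their libraries share cultures. Zic1 had 0.103, 0.188, 0.267 and 0.0924 RPKM in white Fgf8b libraries 2, 4, 6 and 8 and 12.9, 12.6, 13.8 and 11.4 RPKM in brown Fgf8b libraries 10, 12, 14 and 16 (log2 5.82, SE 0.18, limma adjusted p = 2.06e-14). Its lowest brown library was 42.6 times its highest white one. Lhx8 had 4.0, 4.88, 4.09 and 4.51 RPKM in white and 10.6, 9.56, 9.46 and 11 RPKM in brown Fgf8b libraries, again without overlap (log2 1.21, SE 0.08, limma adjusted p = 1.36e-09). Meox2 (log2 0.66) and Ebf2 (0.60) kept their side at adjusted p of 2.22e-09 and 9.51e-09, both from limma. En1, which was not called between controls, was called here at 0.31 (SE 0.06, limma adjusted p = 1.99e-04), with 5.84 to 6.40 RPKM in white and 7.01 to 7.88 RPKM in brown Fgf8b libraries. Ebf3, 6.58 to 6.99 against 6.34 to 7.35 RPKM, lay at a log2 of 0.01 (limma adjusted p = 0.926).

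Fgf8b changed the levels of most of the factors in both depots, and mostly downwards. In brown preadipocytes, Meox2, En1, Tbx18, Tbx15 and Ebf2 fell and Lhx8 rose, 6 of 9 factors, beside 71.4% of all tested genes called (36.7% higher and 34.7% lower). In white preadipocytes, the same 5 and Ebf3 fell and Lhx8 rose, 7 of 9, beside 65.7% of all tested genes called (36.3% higher and 29.5% lower). A share of 6 or 7 of 9 is near these backgrounds. The median log2 change of the 9 was -0.26 in brown and -0.22 in white cells, and that of all tested genes 0.01 and 0.04. The responses of the depots have no library in common, but each shares its libraries with the depot comparisons. The summed level of preadipocyte markers was also lower with Fgf8b, with 2 of 7 higher and 5 lower in brown and 3 higher and 4 lower in white cells. Markers of other cells moved as well. The Schwann cell list had 3.66 to 4.65 RPKM in brown and 2.69 to 3.61 RPKM in white Fgf8b libraries, against 12.9 to 15.5 and 8.73 to 10.4 RPKM in their controls. The endothelial list had 1.46 to 1.88 RPKM in brown and 2.39 to 2.92 RPKM in white Fgf8b libraries, against 7.62 to 8.89 and 11.1 to 12 RPKM. The skeletal muscle list, with 4.71 to 6.20 and 5.26 to 5.72 RPKM, the fat cell list, with 10.6 to 13.5 and 5.13 to 6.33 RPKM, and the leukocyte list, with 1.62 to 2.25 and 1.79 to 2.37 RPKM in brown and white Fgf8b libraries, were below their controls too. The mesothelial and epithelial list was higher, with 0.819 to 0.966 RPKM in brown and 1.21 to 1.5 RPKM in white Fgf8b libraries, against 0.166 to 0.367 and 0.204 to 0.366 RPKM. These are sums, and single genes of some lists went both ways. Of 6 tested skeletal muscle genes, 1 rose and 4 fell in brown and 2 rose and 2 fell in white cells. In each depot, 1 of 5 tested endothelial genes rose and 3 fell, and 1 of 3 leukocyte genes rose and 2 fell. Of 4 tested mesothelial and epithelial genes, 3 rose and 1 fell in brown and 2 rose in white cells. The part of these lists in the changes of the 9 factors was not tested.

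Meox2 fell most. In white cells it went from 16.5, 16.1, 16.4 and 16.1 RPKM in the controls to 5.45, 5.22, 5.14 and 5.67 RPKM in Fgf8b libraries 2, 4, 6 and 8. In brown cells it went from 29.5, 29.7, 28.8 and 31.6 RPKM to 8.49, 8.34, 9.16 and 8.32 RPKM in Fgf8b libraries 10, 12, 14 and 16. Each depot's groups were far apart, and brown cells with Fgf8b had less Meox2 than untreated white cells. The log2 change was -1.57 (SE 0.05, limma adjusted p = 1.43e-15) in white and -1.78 (SE 0.05, limma adjusted p = 1.71e-16) in brown cells, a 2.98-fold and a 3.44-fold fall. Of all tested genes, 5.31% changed more in white and 4.92% in brown cells. Meox1 had 2.14 ± 0.429 RPKM in white and 1.91 ± 0.169 RPKM in brown Fgf8b libraries, which overlapped with its controls (limma adjusted p = 0.767 and 0.764).

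En1 came next. It went from 9.56, 9.82, 9.08 and 9.51 RPKM to 6.40, 6.24, 6.01 and 5.84 RPKM in white cells and from 10.5, 10.2, 9.87 and 9.29 RPKM to 7.88, 7.59, 7.40 and 7.01 RPKM in brown cells. No Fgf8b library reached its depot's controls. The log2 change was -0.67 (SE 0.06, limma adjusted p = 6.69e-09) in white and -0.45 (SE 0.06, limma adjusted p = 1.07e-06) in brown cells.

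The T-box pair fell by less on the log2 scale, but in brown cells Tbx18 was close to En1. Their RefSeq levels changed there by -25.3% and -25.1%, and their log2 changes lay within 1 SE of each other. Tbx18 went from 8.76 ± 0.700 to 6.85 ± 0.363 RPKM in white and from 9.73 ± 0.570 to 7.26 ± 0.219 RPKM in brown cells, without overlap in either (log2 -0.35 and -0.40, limma adjusted p = 7.49e-05 and 1.32e-05). Tbx15 went from 43.2, 42.2, 43.1 and 43.5 RPKM to 33.5, 35.3, 32.6 and 34.7 RPKM in brown cells, where it fell (log2 -0.35, SE 0.04, limma adjusted p = 7.68e-08). In white cells it went from 48.0 ± 0.347 to 45.3 ± 0.450 RPKM, a small fall with no overlap (log2 -0.09, SE 0.04, limma adjusted p = 0.0331). That white call was lost without white control 5 (adjusted p = 0.0925) or 7 (0.0804) and without white Fgf8b 4 (0.0581) or 8 (0.104).

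Of the EBF pair, Ebf2 fell in both depots, from 7.91 ± 0.233 to 6.26 ± 0.147 RPKM in white (log2 -0.31, limma adjusted p = 1.92e-05) and from 11.7 ± 0.583 to 9.55 ± 0.397 RPKM in brown cells (log2 -0.26, limma adjusted p = 1.09e-04), without overlap. Ebf3 fell in white cells, from 7.86 ± 0.494 to 6.73 ± 0.186 RPKM (log2 -0.22, limma adjusted p = 0.00174). In brown cells Ebf3 had 6.93 ± 0.165 and 6.71 ± 0.438 RPKM, which overlap (log2 -0.05, limma adjusted p = 0.456). With upper-quartile scaling it was called lower there too (log2 -0.14, adjusted p = 0.0332).

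Lhx8 was the factor that rose, from 3.53 ± 0.371 to 4.37 ± 0.402 RPKM in white (log2 0.29, SE 0.08, limma adjusted p = 0.00589) and from 7.37 ± 0.289 to 10.2 ± 0.766 RPKM in brown cells (log2 0.46, SE 0.08, limma adjusted p = 8.91e-05). The lowest white Fgf8b library, at 4.0 RPKM, was just above the highest white control, at 3.94 RPKM, and in brown cells the gap was wider, from 7.65 to 9.46 RPKM. Zic1 was not called in either depot, with 12.8 ± 0.468 and 12.7 ± 0.990 RPKM in brown cells (log2 -0.03, SE 0.18, limma adjusted p = 0.883) and 0.176 ± 0.0497 and 0.162 ± 0.0817 RPKM in white cells (log2 -0.13, SE 0.18, limma adjusted p = 0.537). Zic1 and Lhx8 were both higher in brown than in white cells under both treatments. Whether their responses to Fgf8b differ from each other was not tested.

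Whether the depots responded differently was tested in the same fit, as the brown change minus the white change. It was called for 3 of 9 factors, beside 34.9% of all tested genes (17.1% higher and 17.8% lower), so the share of factors was at the background. Tbx15 fell more in brown than in white cells (-0.26, SE 0.05, limma adjusted p = 7.75e-04). Meox2 fell more in brown cells too (-0.21, SE 0.07, limma adjusted p = 0.0229). En1 fell less in brown cells (0.22, SE 0.08, limma adjusted p = 0.0486), a call that was lost with upper-quartile scaling (0.19, adjusted p = 0.0823) and when any of 12 of the 16 libraries was left out (0.18 to 0.23, adjusted p = 0.0553 to 0.0966). These 12 were all but brown Fgf8b 16, brown control 9, white Fgf8b 2 and white control 5. Brown control 15 was among them (0.18, adjusted p = 0.0798), while the differences of Tbx15 (-0.27) and Meox2 (-0.18) were called without it. Ebf3 had a difference of 0.17 (limma adjusted p = 0.0947), called without white control 3 (0.21, adjusted p = 0.0480).

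Within a library, a family's shares do not move with scaling. Each of 20 comparisons of shares was tested with a two-sided exact permutation test of 4 against 4 libraries, whose smallest p is 0.0286, or 0.0440 after adjustment over the 20. Ebf2 made up 16.1% ± 0.553 of the RPKM of Ebf1 to Ebf4 in white control, 20.2% ± 0.781 in white Fgf8b, 24.3% ± 1.05 in brown control and 32.1% ± 0.875 in brown Fgf8b libraries. The 4 groups did not overlap in any of the 4 comparisons (exact permutation p = 0.0286 in each, adjusted 0.0440). So the share of Ebf2 was higher with Fgf8b in both depots although its own level fell. Ebf1, the most abundant member of the family, fell from 32.9 ± 0.961 to 17.7 ± 0.827 RPKM in white (log2 -0.82, limma adjusted p = 3.97e-12) and from 29.3 ± 0.854 to 13.3 ± 0.608 RPKM in brown cells (-1.08, limma adjusted p = 5.05e-14). The share of Ebf3 was also higher with Fgf8b, 21.7% ± 0.407 against 16% ± 0.913 in white and 22.6% ± 1.43 against 14.4% ± 0.551 in brown cells (exact permutation p = 0.0286 in each, adjusted 0.0440). It was not called between the depots (exact permutation p = 0.0571 in controls and 0.314 with Fgf8b). With all entries summed by symbol, the depot difference in the Fgf8b libraries was 2.51 percentage points (exact permutation p = 0.0286), against 0.857 for the representative transcripts.

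**Figure D3:**
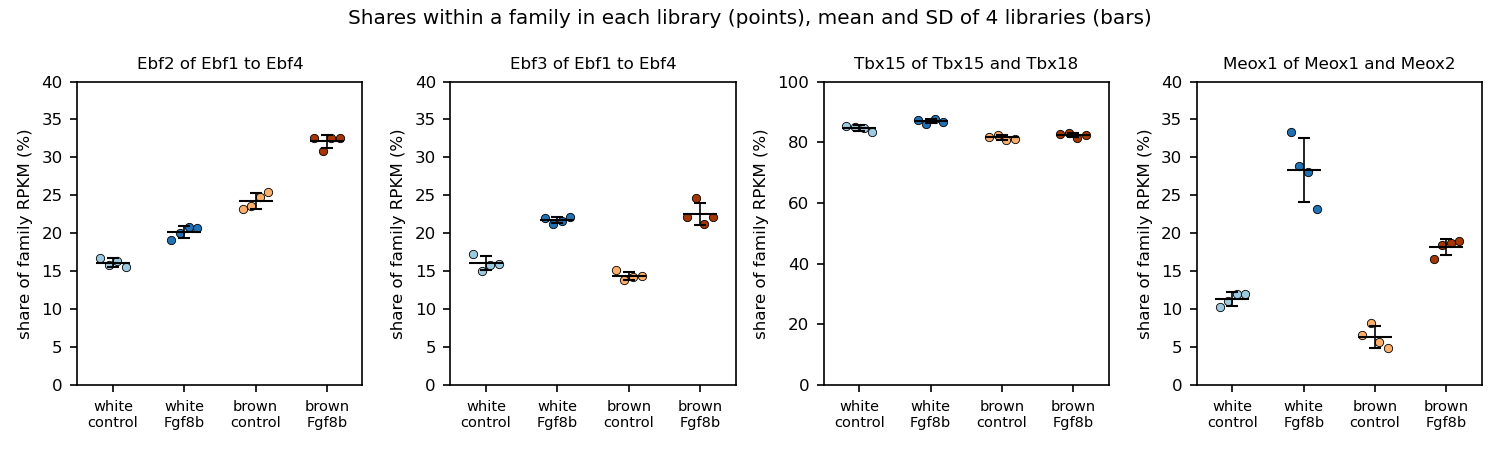
Share (%, vertical axes) of Ebf2 and Ebf3 in the RPKM of Ebf1 to Ebf4, of Tbx15 in that of Tbx15 and Tbx18, and of Meox1 in that of Meox1 and Meox2, with points for the 16 libraries and bars for mean and SD of 4. The share of Ebf2 climbs from 16.1% in white control to 32.1% in brown Fgf8b libraries without overlap in any of the 4 comparisons, and the axis of the T-box pair runs to 100%.

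In the other pairs, Tbx15 made up 84.6% ± 0.935 of Tbx15 and Tbx18 in white control, 86.9% ± 0.695 in white Fgf8b, 81.6% ± 0.725 in brown control and 82.4% ± 0.694 in brown Fgf8b libraries. It was lower in brown cells under both treatments and higher with Fgf8b in white cells (exact permutation p = 0.0286 in each, adjusted 0.0440). In brown cells Fgf8b and control overlapped (exact permutation p = 0.171). Meox1 made up 11.3% ± 0.874 of the Meox pair in white control and 28.3% ± 4.17 in white Fgf8b libraries, and 6.34% ± 1.40 and 18.2% ± 1.04 in brown libraries, with all 4 comparisons apart (exact permutation p = 0.0286, adjusted 0.0440). The level of Meox1 itself was not called in any of these 4 comparisons, while that of Meox2 was called in each. This share thus largely restates the differences of Meox2. Zic1 was 94.8% ± 0.980 of Zic1 to Zic5 in brown control libraries. Its shares in white cells rest on few reads and ran from 63.9% to 100% of the family in single Fgf8b libraries.

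By level per length, the order in white control was Tbx15, Meox2, En1, Tbx18, Ebf2, Ebf3, Lhx8, Meox1 and Zic1, and among neighbours in this order En1 with Tbx18 and Ebf2 with Ebf3 had overlapping ranges. Ebf3 (7.35 to 8.49 RPKM) also overlapped Tbx18 (8.28 to 9.79 RPKM), which stands further from it. In brown control it was Tbx15, Meox2, Zic1, Ebf2, En1, Tbx18, Lhx8, Ebf3 and Meox1, with overlap between the neighbours Zic1 and Ebf2, En1 and Tbx18, and Lhx8 and Ebf3. With Fgf8b, Meox2 moved to the sixth place in white and to the fifth in brown cells, and Lhx8 to the third in brown cells. Over the 16 libraries, which fall into the 4 groups and share depot and treatment, Meox2 varied with En1 (Pearson r = 0.95 of the log2 levels) and Tbx18 (0.93), and Zic1 with Lhx8 (0.92) and Ebf2 (0.89). Lhx8 and Tbx15 ran against each other (r = -0.90), and no correlation of Meox1 with another factor was beyond -0.29 or 0.26.

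The genes whose levels ran most like each factor over the 16 libraries, among 11577 genes of mean 1 RPKM or more, are a description of the same depot and treatment pattern. For Zic1 they were Cp (r = 0.99), Six2 (0.99) and Fam65b (0.99). Six2, a homeobox gene, had 0.0801 ± 0.0243 RPKM in white and 2.71 ± 0.142 RPKM in brown control libraries. For Lhx8 they were Megf10, Slc7a6 and Fam129b (r = 0.97 each). For Meox2 they were Jag1, a ligand of Notch receptors, Pdlim5 and Nov, a secreted CCN protein (r = 0.997, 0.996 and 0.996). Jag1 went from 4.20 ± 0.215 to 0.502 ± 0.0661 RPKM in white and from 13.5 ± 0.175 to 1.39 ± 0.0915 RPKM in brown cells, and Nov from 87.8 ± 1.86 to 7.48 ± 0.362 and from 377 ± 6.10 to 16.4 ± 0.707 RPKM. For Tbx15 they were Grb10, Add1 and Chd3 (r = 0.98 each). Ptx3 and Pdgfrb were among those of En1 (0.99 each), Pdlim5 and Pde3a among those of Tbx18 (0.95 each), and Ptpn14 and Rap2a among those of Ebf2 (0.98 each). Ebf3 (Cd9, 0.84) and Meox1 (Zbtb7b, 0.75) had no gene as close.

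The other genes of the factors' families fell to both sides of the depot comparison. Of 25 paralogues, 15 passed the filter, and in controls 7 were higher and 8 lower in brown cells. Of all tested genes, 18.1% were higher and 15.9% lower there. With Fgf8b, 7 were higher and 6 lower, beside 26.9% and 24.7% of all tested genes. Several passed on very low levels and through 1 depot, so this is no count over all paralogues. Zic4, the neighbour of Zic1 on the chromosome, had 0.00639 ± 0.00739 RPKM in white and 0.419 ± 0.0939 RPKM in brown controls (log2 3.93, limma adjusted p = 4.41e-10), and Zic2 had 0.00465 ± 0.0093 and 0.208 ± 0.0478 RPKM (1.60, limma adjusted p = 2.75e-06). On the white side, Tbx1 had 1.11 ± 0.257 RPKM in white and 0.0294 ± 0.0388 RPKM in brown controls (log2 -1.91, limma adjusted p = 2.88e-08), and Tbx5, a T-box gene of the forelimb and heart, 1.40 ± 0.109 and 0.331 ± 0.0429 RPKM (-1.57, limma adjusted p = 1.52e-07). These 4 were chosen after their values were seen. For Zic4 and Zic2, the log2 change of the summed entries is larger than the printed RefSeq levels give. Exons of Zic4 also lie partly opposite exons of Zic1. Tbx3 had 2.27 ± 0.245 RPKM in white and 1.38 ± 0.0795 RPKM in brown controls (-0.70, limma adjusted p = 8.07e-07) and rose with Fgf8b in both depots (0.59 in white and 1.12 in brown cells, limma adjusted p = 1.66e-06 and 1.70e-10).

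**Figure D4:**
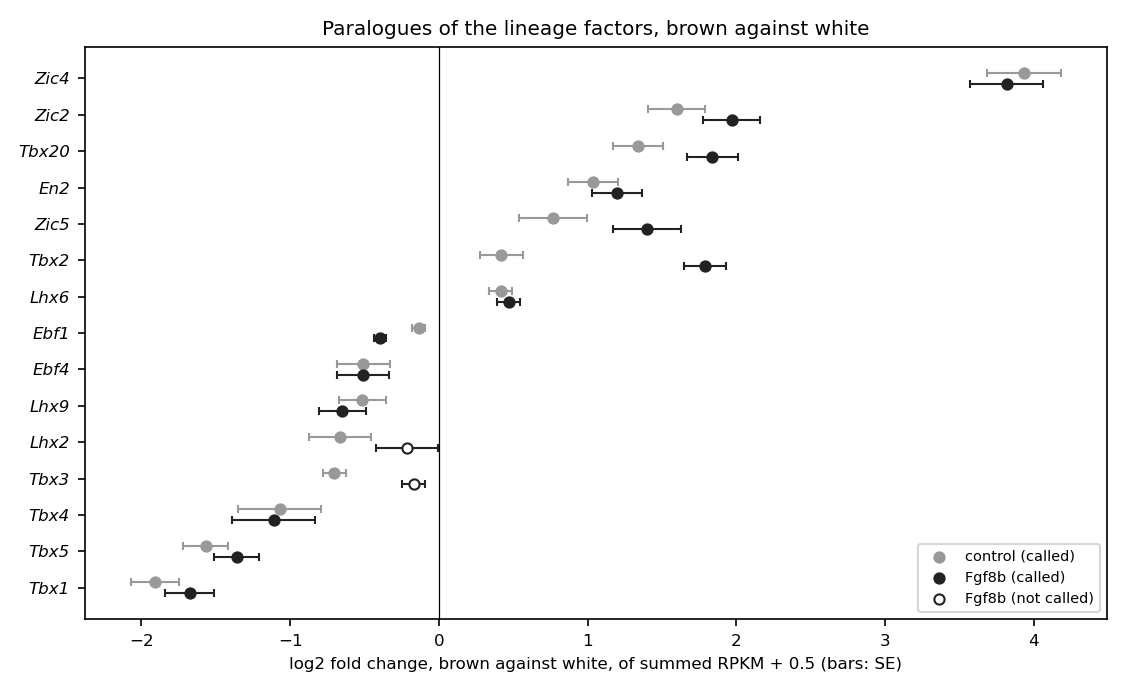
Log2 fold change between brown and white preadipocytes (horizontal axis) with its SE for the 15 paralogues that passed the filter, in control (grey) and Fgf8b (black) libraries, open where not called. Zic4 lies highest at 3.93 in controls and Tbx1 lowest at -1.91.

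Under Fgf8b, 6 of the 15 paralogues rose and 1 fell in brown cells, beside 36.7% and 34.7% of all tested genes. In white cells 2 rose and 2 fell, beside 36.3% and 29.5% of all tested genes. With upper-quartile scaling the counts in brown cells were 5 and 3. The LIM homeodomain gene Lhx6 rose with its relative Lhx8 and by more, from 3.95 ± 0.288 to 11.7 ± 1.02 RPKM in white (log2 1.56, limma adjusted p = 2.09e-12) and from 5.36 ± 0.626 to 16.2 ± 0.571 RPKM in brown cells (1.61, limma adjusted p = 9.91e-13).

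Among 16 tested of 17 other regulators of brown or white fat identity, 4 were higher and 8 lower in brown controls. Of all tested genes, 18.1% were higher and 15.9% lower there. With Fgf8b, 6 rose and 8 fell in brown cells, beside 36.7% and 34.7% of all tested genes. In white cells 3 rose and 9 fell, beside 36.3% and 29.5% of all tested genes. Without brown control 15 the depot count was 3 and 9. Zfp521, a zinc finger protein that binds Ebf factors, fell from 27.1 ± 0.385 to 6.66 ± 0.159 RPKM in white (log2 -2.03, limma adjusted p = 1.41e-16) and from 17.8 ± 0.899 to 4.32 ± 0.333 RPKM in brown cells (-2.02, limma adjusted p = 1.12e-16). Nfia, a factor that works with Pparg at brown fat enhancers, fell from 7.60 ± 0.321 to 3.59 ± 0.125 and from 6.91 ± 0.429 to 3.25 ± 0.237 RPKM (-1.07 and -1.09, limma adjusted p = 4.33e-12 and 2.55e-12). Foxc2 rose, from 3.15 ± 0.227 to 4.54 ± 0.412 RPKM in white (0.50, limma adjusted p = 1.22e-04) and from 4.88 ± 0.710 to 9.56 ± 0.548 RPKM in brown cells (0.96, limma adjusted p = 3.57e-08). Tle3, a corepressor, fell in white (-0.23, limma adjusted p = 2.82e-04) and rose in brown cells (0.55, limma adjusted p = 3.83e-09), and the difference was called (0.78, limma adjusted p = 6.18e-08).

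Of 15 dermomyotome and myogenic regulators, 6 passed the filter, and 5 of them were higher in brown controls, beside 18.1% of all tested genes. With Fgf8b, 3 of the 6 were higher in brown cells, beside 26.9% of all tested genes. Eya1 and Eya2 passed on very low levels, highest in brown controls (0.180 ± 0.0658 and 0.351 ± 0.143 RPKM). So this is no count over all such regulators. Pax3, a paired-box gene of the dermomyotome, had 3.16 ± 0.245 RPKM in white and 4.82 ± 0.238 RPKM in brown controls (log2 0.57, limma adjusted p = 1.09e-05). The muscle-determining genes did not pass: Myod1 and Myf6 were listed at 0 in all libraries, and Myf5, Myog and Pax7 had group means of at most 0.0123 RPKM. On the white side, 6 of 9 tested white and beige depot markers were lower and 2 higher in brown controls. Of all tested genes, 15.9% were lower and 18.1% higher there. Hoxc10, a posterior Hox gene, had 45.7 ± 1.16 RPKM in white and 2.67 ± 0.383 RPKM in brown controls (log2 -4.03, limma adjusted p = 1.39e-16) and 39.5 ± 0.788 and 2.50 ± 0.283 RPKM with Fgf8b (-3.91, limma adjusted p = 4.89e-16). Hoxc10 and Zic1 thus marked the depots in opposite directions under both treatments.

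Transcript entries of a factor overlap in their reads and are not independent of each other. In brown against white controls, all 8 entries of Zic1 were higher, from 2.64 to 4.51 on the log2 scale of group means, as were all 5 of Lhx8 and of Ebf2 and all 4 of Meox2. All 5 entries of Tbx15 and all 8 of Ebf3 were lower. With Fgf8b, all 4 entries of Meox2 and of En1 were lower in both depots. Entries differed in sign for small differences, with 4 of Ebf3 higher and 4 lower between the Fgf8b depots, 4 of Tbx18 higher and 1 lower in that comparison, and 1 of Meox1 higher and 2 lower between controls. With Fgf8b, 1 entry of Zic1 was higher and 7 lower in brown cells, and 2 were higher and 6 lower in white cells. Some factors share sequence with other genes. In GENCODE M21, 20.6% of the exon bases of Tbx18 lie opposite exons of D030062O11Rik, 6.12% of those of Ebf2 opposite Gm10860, 3.85% of those of Ebf3 opposite Gm45278 and 1.05% of those of Zic1 opposite Zic4. No source used here says whether the counting used strand, so reads from such stretches cannot be assigned. Words of 31 bases that also occur in other genes made up 19.5% of the longest transcript of Tbx18, 7.27% of that of Ebf2, 5.67% of that of Ebf3 and 1.96% of that of Zic1. The other 5 factors had at most 0.595%.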

How the data were processed

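RNA of 16 libraries was measured by sequencing. Per the labels' protocols, total RNA (Trisure, then columns) went into TruSeq RNA libraries, and per the submitters' processing notes CASAVA and bcl2fastq were used. No source used here gives aligner, build or strand. The authors deposited 1 table of RPKM per transcript entry, written with decimal commas. Of 168326 entries, 23172 carry no symbol, and 808 with repeated accessions, 0 of them of the 9 factors, were left out. Values were whole reads over length and depth for 95.6 to 96.0% of values of up to 50 reads (within 0.1 of a read), which gave the reads printed. Entries were summed by symbol and log2(RPKM + 0.5) was tested with limma 3.58.1 (trend, robust) in R 4.3.3, over genes that reached 0.5 RPKM in 4 libraries or more. The test was tested on simulated data that held no entries sharing reads, so it was not tested for that feature of the summed entries. Other steps used scipy 1.17.1, pandas 2.3.3, numpy 2.4.6 and matplotlib 3.10.9 in Python 3.11.15. Named genes were the 9 factors, the 3 genes most like each, and from each list the 3 largest changes among genes of mean 1 RPKM or more; some of these are not reported here. Zic2, Zic4, Tbx1, Tbx5, Eya1, Eya2 and Mbp were named outside this rule, after their values were seen. The factors, lists and tests were chosen with earlier results of these data known. Alternatives were other pseudocounts, filters and scalings, the RefSeq transcript alone, only the groups compared and each library left out. Sequences are from RefSeq (GRCm38.p6), and overlaps and shared words of 31 bases from GENCODE M21.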

Additional observations from a re-analysis of the deposited data

Results flagged for a closer look

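The Fgf8b response differed between the depots, by the test of the difference itself (limma, brown minus white, 4 libraries a group), for 3 of the 9 factors, beside 34.9% of all tested genes. It was -0.21 for Meox2 (log2, adjusted p = 0.0229), -0.26 for Tbx15 (adjusted p = 7.75e-04) and 0.22 for En1 (adjusted p = 0.0486), all from limma. For Meox2 and Tbx15 the adjusted p stayed under 0.05 in all 23 alternatives run, with its highest value at 0.0495 for Meox2 and 0.00241 for Tbx15. For En1 it ran from 0.0237 to 0.0966 and the call was lost in 13 of the 23, so it depends on the setting and on single libraries. In 36 sets of 4 libraries (9 factors in 4 groups), 0 held a library standing apart from the other 3 by Dixon's criterion.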

How the results depend on the processing

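No paired analysis was run, because the groups compared share no replicate number and no label pairs them. Odd numbers are controls and even numbers Fgf8b libraries, and whether neighbouring numbers belong together is not known. Over all alternatives, 1044 recomputed values of the 9 factors kept their side of the threshold. Another 22 lost a call, 5 gained a call and 0 changed sign while called. Some changes that were not called did change sign, such as that of Meox1 between control depots (log2 -0.16 to 0.04). The calls that moved are those of Ebf3, Tbx18, Tbx15 in white cells and the En1 difference, given with the results. The share of Ebf3 in Ebf1 to Ebf4 between Fgf8b depots was 0.857 percentage points higher in brown (exact permutation p = 0.314) and 2.51 points higher when entries were summed by symbol (exact permutation p = 0.0286). That alternative counts more transcript entries, and the cause was not tested. The number of factors called was 5 to 7 of 9 between control depots, 6 to 7 for Fgf8b in brown, 6 to 7 in white and 2 to 3 for the difference. Of all 15222 tested genes, 33.9%, 71.4%, 65.7% and 34.9% were called in these comparisons in the main fit. With 1 library left out, the genes called were 4488 to 5299, 10451 to 10905, 9491 to 10400 and 4850 to 5894. The counts of factors for Fgf8b are thus near the share over all genes. Depth limits Zic1 in white cells, at 5 to 18 reads per library, and Meox1, at 58 to 105 reads.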
